A study of Sus scrofa with 18 samples.

Results

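RNA circulating in serum was compared between cardiogenic shock (CS) and the healthy state (Baseline) of the same pigs. The members of this comparison were the 6 Baseline libraries and CS replicates 1 to 5, which are 11 of the 18 libraries of the series. CS replicate 6 held 2484066 reads, far fewer than the other libraries, and was left out. All libraries came from 6 female Danish Landrace pigs aged 5 months, and replicates of the same number came from 1 pig, so that 5 pigs had both a Baseline and a CS library. Baseline serum was taken before any microspheres were given. CS serum was taken after polyvinyl alcohol microspheres had been injected into the left main coronary artery until venous oxygen saturation or cardiac index had fallen. The 6 libraries of the third time point, taken on a percutaneous ventricular assist device (pVAD) after CS, were used only to estimate the spread between libraries. The groups used here include none that went through anaesthesia and instrumentation without microspheres, so time, anaesthesia and CS cannot be told apart.

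Cardiogenic shock is the failure of the heart to pump enough blood for the organs, most often after a large infarction. The organs then receive too little oxygen, catecholamines and cortisol rise, and stressed or dying cells may release their contents into blood. Serum is blood after clotting and centrifugation, so its RNA is mostly what cells have released, in vesicles, bound to protein or as fragments. It carries no label of the organ it came from, and a change in the number of cells that release RNA cannot be told apart from a change in the RNA released per cell.

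The 11 libraries held between 18229243 and 71488943 reads assigned to genes. The share of reads in mitochondrial genes was 5.13% ± 1.45 (SD, n = 6) at Baseline and 5.27% ± 2.01 (SD, n = 5) in CS, and the exact two-sided permutation test gave p = 0.877. Protein-coding genes took 50.4% ± 5.80 and 48.8% ± 18.2 of the reads (exact permutation p = 0.866), and the 4 most abundant genes took 44.2% ± 5.86 and 44.7% ± 17.6 (exact permutation p = 0.898). With each library thinned to 18229243 reads, 24579 ± 877 genes had a read at Baseline and 23890 ± 1692 in CS (exact permutation p = 0.409). None of the 4 measures differed beyond the spread between libraries, and the adjusted p over the 4 was 0.898 for each (exact permutation test). Within the 5 pigs the sign-flip test, which cannot go below 0.063 with 5 pairs, gave exact p values of 0.688, 0.875, 1.0 and 0.63 in the same order. The CS libraries spread more widely than those at Baseline, and 3 of them held the extremes. CS replicate 4 had 71.5% of its reads in its 4 most abundant genes and 20.9% in protein-coding genes. CS replicate 5 lay at the other end, with 24.2% and 65.9%, and with the lowest mitochondrial share, 2.85%. CS replicate 1 had the fewest genes at equal depth, 21521, and the highest mitochondrial share, 7.93%, but was in the middle on the other measures.

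**Figure D1:**
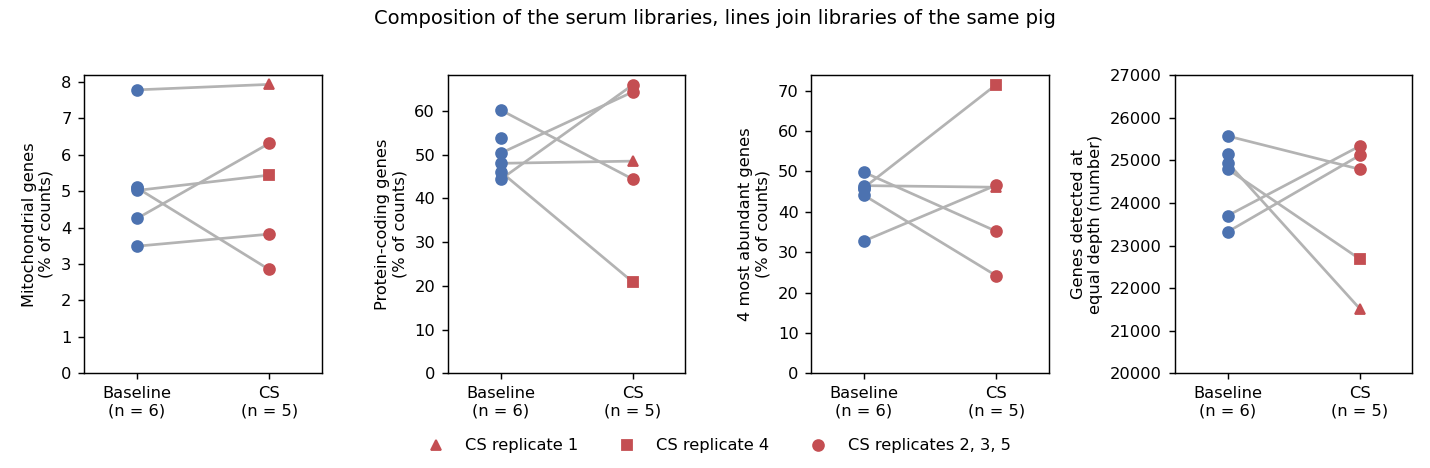
Composition of the 11 libraries at Baseline and in CS: the share of reads in mitochondrial genes, in protein-coding genes and in the 4 most abundant genes (each in %), and the number of genes with a read at equal depth; lines join the libraries of 1 pig. The square, CS replicate 4, lies alone at 71.5% of reads in 4 genes and 20.9% in protein-coding genes, and the triangle, CS replicate 1, is lowest in genes at 21521.

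Of 26146 genes tested, 738 were called, which is 2.82%. A gene was called when edgeR's quasi-likelihood test gave an unadjusted p below 0.05 and the fold change exceeded 1.5, in either direction. There were 415 genes called higher in CS (1.59%) and 323 called lower (1.24%), a balance that turned to 152 higher and 202 lower with the pig as a block over the 10 paired libraries. The unadjusted p was below 0.05 for 808 genes, or 3.09% of those tested. No gene passed an edgeR adjusted p of 0.05, since the lowest adjusted p was 1, and DESeq2 also gave 0 while calling 930 genes by the same unadjusted rule, 596 of them among the 738. Calls are therefore given below as descriptions of these libraries, and every edgeR adjusted p was 1. All levels are CPM, read counts brought to one library size by TMM factors, and changes are log2(CS/Baseline) with their standard errors (SE).

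Genes called higher had a median level somewhat below that of all genes tested, and genes called lower had one well below it. The median level over the 11 libraries was 4.02 CPM for the genes called higher, 0.765 CPM for those called lower and 5.16 CPM for all genes tested. Of the 323 called lower, 112 had under 10 reads per library and 72 had no read in any CS library. Of the 415 called higher, 54 had under 10 reads per library and 33 had no read at Baseline. Gene symbols were known for 281 of those called higher and 130 of those called lower.

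The genes called higher mostly peaked in 2 libraries. CS replicate 1 held the highest value of all 11 libraries for 249 of the 415 genes (60.0%) and CS replicate 4 for 113 (27.2%). Together these were 87.2% of the genes called higher, none of which peaked at Baseline. Of all 11896 genes that peaked in any CS library, called or not, 72.2% peaked in the same 2 libraries (43.8% in replicate 1 and 28.4% in replicate 4). Those called lower all peaked at Baseline, most often in replicates 2 (27.6%), 5 (25.1%) and 6 (22.6%), which together held 75.2% of them and 78.9% of all genes that peaked at Baseline. These shares were not tested. Leaving out CS replicate 1 gave 486 called genes, 319 of them among the 738. Leaving out CS replicate 4 gave 626, 415 of them among the 738. With both left out, an alternative added after seeing the data, 301 genes were called, 141 higher and 160 lower, and 142 of them were among the 738. The part of library composition in these calls was not tested. More genes were called without CS replicate 2 (1066), 3 (905) or 5 (978).

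**Figure D2:**
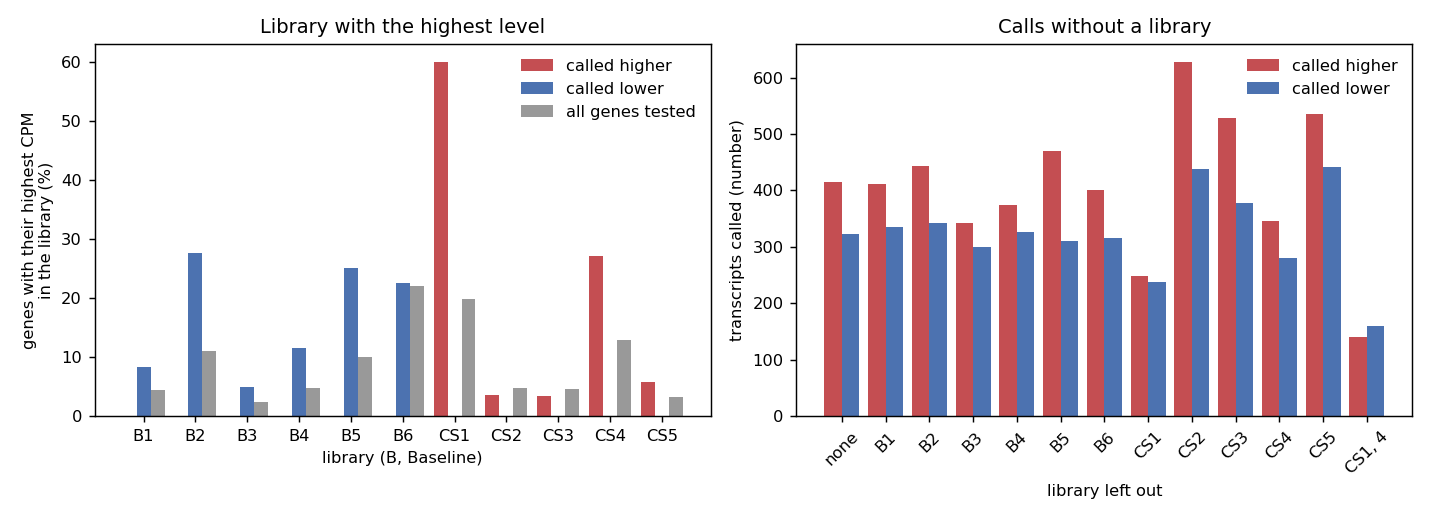
Left, the percentage of genes whose highest CPM lies in each of the 11 libraries, for the genes called higher, those called lower and all genes tested. Right, the number of genes called higher and lower with each library left out in turn. CS replicate 1 holds the peak of 60.0% of the genes called higher and of 43.8% of all genes that peak in a CS library, and the total falls from 738 to 486 without it.

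Within animals, more genes moved the same way in every pig among those called lower than among those called higher. Of the 361 genes called higher with at least 10 reads per library, 92 (25.5%) were above Baseline in all 5 pigs and 174 (48.2%) in 4. Of the 211 called lower, 105 (49.8%) were below Baseline in all 5 pigs and 86 (40.8%) in 4. Over all 24203 genes with that many reads, 1.91% were above Baseline in 5 of 5 pigs and 2.5% below. These shares were read from the libraries that made the calls, and they describe the calls without testing them. With the pig as a block, the 10 paired libraries gave 354 calls, 180 of them among the 738, and the 17 libraries gave 688, 338 of them among the 738.

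Complete separation of the groups was rare. Every CS library lay above every Baseline library for 23 genes, 0.095% of the 24203, and 19 of them were called. Every CS library lay below every Baseline library for 31 genes, 0.128%, and 17 of them were called. Random order of so few libraries also separates some genes, and the counts were not tested against it. Separation, like 1 direction in all pigs, thus describes a gene without testing it. A smaller set of 52 genes, 20 higher and 32 lower, was called in each of the 11 fits that left out 1 library and in both fits with the pig as a block. Of these, 31 had a symbol, 15 higher and 16 lower. This set was formed after the values were seen.

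IFI6, an interferon-induced protein of mitochondria that limits cell death, had the smallest p of the genes named higher. Its level at Baseline was 1.88 CPM at the lowest, 2.16 at the median and 2.98 at the highest. In CS it was 10.0, 5.14, 4.46, 8.42 and 4.29 CPM in replicates 1 to 5. All CS libraries lay above all Baseline libraries, with CS replicates 1 and 4 the highest. The log2 change was 1.53 ± 0.35 (SE) (edgeR adjusted p = 1), and IFI6 was still called, at 1.05, without CS replicates 1 and 4.

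CDC42SE1, a small protein that binds the GTPase CDC42, behaved alike. It ran from 2.91 CPM through a median of 3.62 to 4.53 at Baseline. The 5 CS libraries had 9.43, 5.33, 8.0, 10.3 and 5.65 CPM. Again no CS library overlapped Baseline. Its log2 change was 1.07 ± 0.29 (SE; edgeR adjusted p = 1), and 0.78 without CS replicates 1 and 4, where it was still called.

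SERTAD2, a transcriptional coregulator, was more abundant, and its change was smaller with a smaller error. Baseline values were 22.7 CPM at the lowest, 27.7 at the median and 31.3 at the highest. CS values were 56.7, 38.6, 31.5, 55.9 and 32.0 CPM. The groups did not overlap, but CS replicates 3 and 5 lay only just above the highest Baseline library. The log2 change of 0.64 ± 0.18 (SE; edgeR adjusted p = 1) lost the call without CS replicate 1 (0.52) or CS replicate 4 (0.53).

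ACD encodes TPP1, a member of the shelterin complex that protects chromosome ends. It was close to absent at Baseline, from 0 through a median of 0.146 to 0.377 CPM. CS libraries held 5.75, 0.837, 1.55, 0.228 and 1.39 CPM. Only CS replicate 4 fell within the Baseline range. It had 5 reads, against 10 in Baseline replicate 4 of the same pig, and the scaled levels were nearly equal (0.228 and 0.222 CPM). The log2 change was 3.63 ± 1.02 (SE; edgeR adjusted p = 1), and ACD kept the call in all 11 fits without 1 library, in both block fits and without CS replicates 1 and 4.

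FBXL16, an F-box protein, ranged at Baseline from 0.305 to 2.82 CPM with a median of 2.20. Its CS values of 10.7, 3.49, 3.64, 7.92 and 3.95 CPM were all higher. The change was 1.62 ± 0.48 on the log2 scale (SE; edgeR adjusted p = 1). It kept the call without any 1 library, and was 0.93 and no longer called without CS replicates 1 and 4. OR4D10 bears the name of an olfactory receptor, a multigene family in which reads may be shared between copies, so its value is uncertain. It was at 0.0855 to 1.10 CPM at Baseline (median 0.599) and at 7.05, 1.48, 1.53, 1.78 and 1.39 CPM in CS, without overlap, with a log2 change of 2.15 ± 0.66 (SE; edgeR adjusted p = 1).

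A second group was called higher in all 5 pigs but rested on CS replicate 1. RBBP6, a ubiquitin ligase that binds the retinoblastoma protein, was at 35.8 CPM in CS replicate 1 and at 7.10 to 11.7 in the other 4, against 3.76 to 8.47 at Baseline. E2F1, a transcription factor of the cell cycle, was at 29.5 CPM there and at 5.26 to 7.37 in the others, against 1.46 to 5.82. CYB561D1, a cytochrome b561 family protein, was at 20.2 CPM there and at 3.11 to 7.19 in the others, against 1.94 to 4.25. Their log2 changes of 1.20, 1.38 and 1.32 became 0.60, 0.55 and 0.54 without CS replicate 1, and none was then called. ALDH1A3, an enzyme that makes retinoic acid, was more even, with 35.9, 19.7, 22.6, 32.4 and 18.1 CPM in CS against 9.79 to 20.7 at Baseline, but it too lost the call without CS replicate 1 (0.72 to 0.57).

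ZRANB2, ING2, KPNA2 and PRPF4 stayed called in every fit without 1 library and with the block. ZRANB2, a zinc finger protein that binds splice sites, had 9.14, 3.30, 2.52, 13.9 and 7.09 CPM in CS against a range of 1.20 to 4.04 at Baseline. ING2, a reader of histone methylation, had 7.65, 3.56, 2.67, 9.51 and 5.10 CPM against 1.15 to 4.33. KPNA2, an importin that carries proteins into the nucleus, had 8.45, 4.93, 3.37, 11.5 and 2.87 CPM against 1.48 to 3.90. The groups overlapped for all of these, and CS replicate 3, among others, lay within the Baseline range each time. PRPF4, a protein of the U4/U6 small nuclear ribonucleoprotein, had 10.5, 5.36, 6.64, 5.60 and 5.12 CPM against 1.34 to 5.49. Their log2 changes were 1.55, 1.23, 1.28 and 1.06, and none was called without CS replicates 1 and 4 (0.81, 0.64, 0.55 and 0.83).

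The same held for PDCD5 and 5 other named genes. PDCD5, a protein linked to programmed cell death, was at 3.13 to 8.15 CPM in CS and 1.43 to 3.36 at Baseline (log2 change 1.09). CNP, the myelin enzyme that cleaves cyclic nucleotides and not the natriuretic peptide, was at 3.11 to 13.4 CPM against 1.69 to 5.31 (1.10). PTPRCAP, a partner of CD45 in lymphocytes, was at 2.15 to 10.7 CPM against 0.711 to 4.63 (1.51). GIMAP8, a GTPase of lymphoid cells, was at 4.97 to 16.8 CPM against 4.10 to 6.68 (0.90). In all of these the highest CS library was replicate 1 or 4, and the groups overlapped. NME9, a protein of the nucleoside diphosphate kinase family, had 20.6, 12.2, 17.6, 17.3 and 13.2 CPM against 6.13 to 14.5 (0.70). PCMTD2, related to a methyltransferase that repairs proteins, had 14.6, 13.6, 8.70, 10.9 and 9.45 CPM against 4.23 to 11 (0.80), and was the only 1 of these 6 still called without CS replicates 1 and 4 (0.69).

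**Figure D3:**
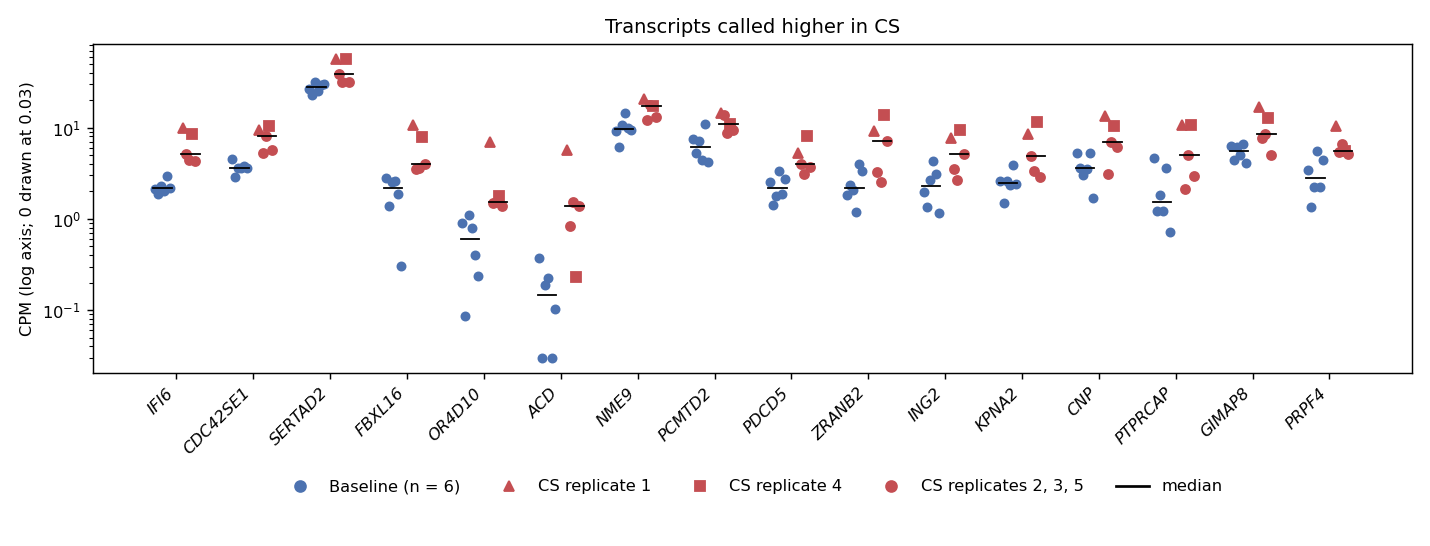
Level (CPM, log axis) of 16 genes called higher, in the 6 Baseline and 5 CS libraries, with 0 drawn at 0.03 and group medians as lines. The CS points of IFI6 start at 4.29 CPM, above the highest Baseline point of 2.98, while for most other genes CS replicates 1 and 4 lead and the rest overlap Baseline.

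Most genes named next on the lower side were chosen for 1 direction in 5 pigs or for keeping their calls. Their even fall over the CS libraries thus comes in part from that choice. S1PR3, a receptor for sphingosine-1-phosphate on smooth muscle and endothelium, was at 5.79 CPM at the lowest, 7.65 at the median and 8.60 at the highest at Baseline. In CS it was 3.15, 3.92, 3.86, 5.28 and 4.84 CPM. Every CS library lay below every Baseline library. The log2 change was -0.80 ± 0.26 (SE; edgeR adjusted p = 1), and S1PR3 was still called in the 11 fits without 1 library, in both block fits and without CS replicates 1 and 4.

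SFTPC encodes surfactant protein C of the alveolar type 2 cell. It ran from 2.42 through 3.06 to 3.37 CPM at Baseline. In CS it was at 0.674, 0.407, 1.31, 1.05 and 2.38 CPM. The groups did not overlap, although CS replicate 5 came within 0.04 CPM of the lowest Baseline library. The log2 change was -1.37 ± 0.46 (SE; edgeR adjusted p = 1), and the call held in the same fits as for S1PR3. The other 10 lung genes measured were not called, and the summed level of all 11 was 50.8 to 105 CPM at Baseline and 59.6 to 141 in CS.

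GPN1, a GTPase needed to bring RNA polymerase II into the nucleus, was at 5.22 to 8.45 CPM at Baseline (median 7.32). Its CS values were 1.59, 3.59, 4.83, 3.78 and 4.66 CPM, all below Baseline, with a log2 change of -0.92 ± 0.30 (SE; edgeR adjusted p = 1). DIRAS2, a small GTPase of the Ras family known from brain, was at 7.22 to 10.9 CPM at Baseline (median 8.34). It had 0.914, 4.31, 5.84, 3.64 and 6.21 CPM in CS, again with no overlap, and a log2 change of -1.04 ± 0.37 (SE; edgeR adjusted p = 1). Both calls held in the 11 fits without 1 library, in both block fits and without CS replicates 1 and 4. ANKRD34B, a protein with ankyrin repeats, was at 3.93 to 8.30 CPM at Baseline and at 3.42, 3.28, 1.92, 2.96 and 3.36 CPM in CS. TCTN2, a protein of the transition zone of cilia, was at 6.58 to 12.6 CPM at Baseline and at 3.10, 6.10, 5.14, 4.19 and 6.74 CPM in CS. ANKRD34B did not overlap, TCTN2 did so only in CS replicate 5, and their log2 changes were -0.87 and -0.85.

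Rarer genes showed larger changes with more error. JTB, a membrane protein, was at 0.644 to 2.91 CPM at Baseline and at 0, 0.287, 0.485, 0.410 and 0.822 CPM in CS (log2 change -2.27 ± 0.81, SE). TIMM10, a chaperone of mitochondrial import, was at 0.684 to 4.17 CPM and then at 0, 0.311, 0.946, 0 and 0.585 CPM (-2.44 ± 0.87, SE). TMEM229A, a membrane protein, was at 0 to 3.04 CPM and then at 0, 0.0957, 0.170, 0 and 0.439 CPM (-3.27 ± 1.16, SE). RAB39B, a GTPase of vesicle traffic, was at 1.49 to 4.63 CPM and then at 0.650, 0.502, 1.55, 1.09 and 1.68 CPM (-1.33 ± 0.48, SE). CS libraries lay at the low end in each case and overlapped Baseline in 1 or more libraries. ISG20L2, a nuclease of ribosomal RNA maturation, PRSS16, a protease of the thymus, BPIFA3, ZNF518A and ZNF330 had log2 changes of -1.11, -0.85, -1.13, -1.41 and -1.03. All 5 were lower in all 5 pigs, and of them only ZNF330 lost the call in the block over 10 libraries (-0.88). NUDT11, a phosphatase of inositol polyphosphates, had a log2 change of -1.66 and was lower in 4 of 5 pigs.

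**Figure D4:**
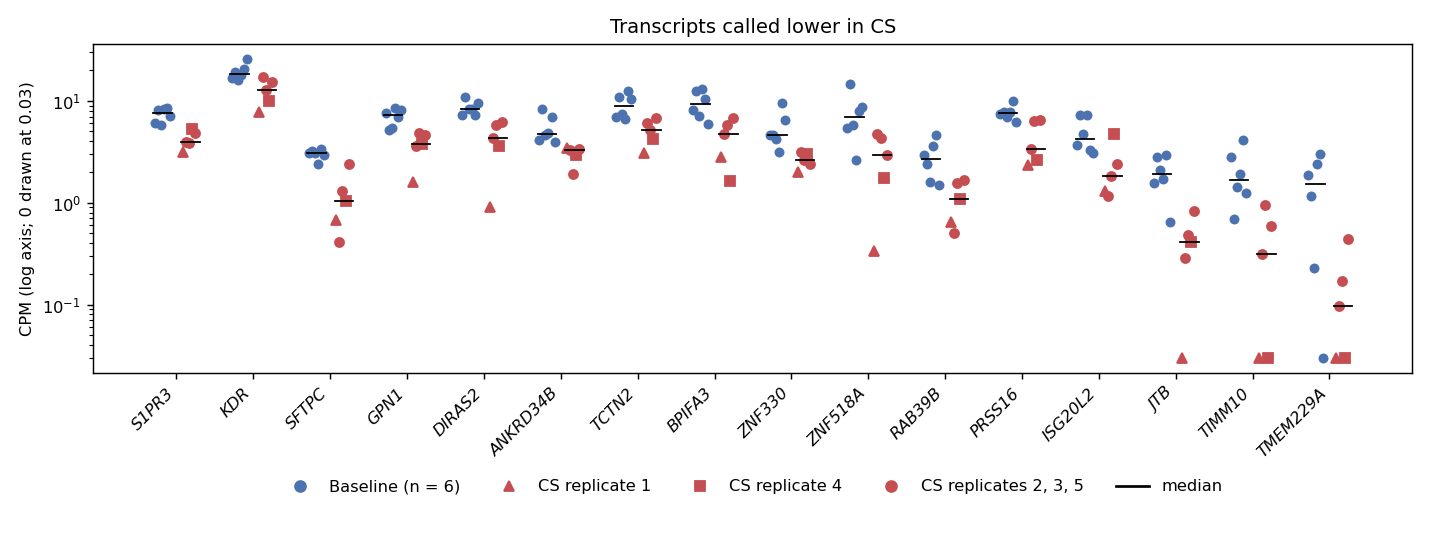
Level (CPM, log axis, with 0 drawn at 0.03) of 16 genes called lower, in the 6 Baseline and 5 CS libraries, with group medians as lines. For S1PR3 the CS points end at 5.28 CPM, below the lowest Baseline point of 5.79, and for SFTPC they end at 2.38 against 2.42.

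To ask which tissues the serum RNA resembled, 44 lists of genes were summed in each library. Across them 43 of 1124 different genes tested were called, or 3.83%, beside 2.82% of all genes. By edgeR 21 lists had no called gene and 13 had 1. Of the 21, the hepatocyte and aminoacyl-tRNA synthetase lists each had 1 gene with an unadjusted p below 0.05, and the others had 0. DESeq2 called 2 hypoxia targets, 1 cardiomyocyte gene, 1 intestinal epithelial gene and 1 cytokine or chemokine in these 21 lists. In fits without 1 library each of the 21 had between 0 and 3 called genes. Only the skeletal muscle, pancreas and glucocorticoid lists had none in all of these fits, both block fits and DESeq2. The fits with other size factors, filters or sets of libraries were not counted by list. The total of 43 called genes also moved between fits. Leaving out CS replicate 4 gave 28, leaving out CS replicate 1 gave 30, and leaving out both gave 5. It was 28 with the pig as a block over 10 libraries, 71 with CS replicate 2 left out and 67 with CS replicate 5 left out.

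The heart and liver lists had no gene called by edgeR. None of 21 cardiomyocyte genes was called by edgeR, 1 was by DESeq2 and 1 without Baseline replicate 4, CS replicate 3 or CS replicate 5. Their median log2 change was 0.01, and their sum was 376 to 431 CPM at Baseline and 361 to 427 CPM in CS. TNNT2, cardiac troponin T, whose protein is the blood test for infarction, was at 11.8 ± 6.11 CPM at Baseline (SD, n = 6) and 12.2 ± 2.83 in CS (SD, n = 5). NPPB, the precursor of B-type natriuretic peptide, was at 6.60 ± 2.12 and 5.84 ± 1.41 CPM. The calcium release channel RYR2 was at 147 ± 40.3 and 137 ± 21.2 CPM. CKM, the muscle creatine kinase, was at 11 ± 3.47 and 12 ± 4.18 CPM. These differences were all smaller than 1 SD. None of 27 hepatocyte genes was called by edgeR either, except 1 without Baseline replicate 2, and they summed to 260 to 321 CPM at Baseline and 251 to 354 CPM in CS. Albumin (ALB) was at 21.5 ± 7.88 and 22.6 ± 7.52 CPM, apolipoprotein B (APOB) at 22.9 ± 4.63 and 22.3 ± 2.81 CPM, and the drug-metabolising enzyme CYP3A29 at 59.0 ± 6.50 and 59.6 ± 12.4 CPM.

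By edgeR no gene was called among the lists for skeletal muscle (12 genes), kidney tubule (9), intestinal epithelium (8), pancreas (9) or adipocytes (8). DESeq2 called 1 intestinal gene, and fits without 1 library called up to 1 gene each of the kidney, intestinal and adipocyte lists. Their sums in CS overlapped those at Baseline, with CS replicate 1 above every other library in all but the kidney list. In the adrenal list, STAR, which moves cholesterol into mitochondria for steroid synthesis, was called higher. It was at 4.88 to 9.92 CPM at Baseline and at 18.6, 8.49, 9.89, 9.65 and 7.55 CPM in CS, so that only CS replicate 1 lay outside the Baseline range. Without that library the log2 change fell from 0.64 to 0.35, and STAR was also called neither without Baseline replicate 1 (0.55) nor in the block over 10 libraries (0.54). The adrenal list summed to 129 CPM in CS replicate 1 and to 26.4 to 66.6 CPM in the 10 others. GFAP, the filament of astrocytes, was at 28.2 CPM in CS replicate 1 and at 4.83 to 8.22 in the other CS libraries, within the Baseline range of 1.15 to 8.88. At log2 1.07 in the full fit, it was at 0.29 without CS replicate 1. It also lost the call without Baseline replicate 2 (1.04), 3 (1.07) or 6 (0.87) and in both block fits.

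In the photoreceptor and neuronal list, which holds GFAP, 15% of 20 genes were called, beside 2.82% of all genes tested. Of its other genes, the cone transducin GNAT2 was called higher, at 6.81, 2.54, 3.30, 13.6 and 2.45 CPM against 1.73 to 3.78. This call, at log2 1.19, was lost when CS replicate 4 was left out (0.59) and in the block over 10 libraries (0.80). The rod transducin GNAT1 was called lower, at 1.87 to 3.91 CPM against 2.03 to 11.1, with a log2 change of -0.92. That call was lost without CS replicate 2 (-0.78) or 5 (-0.91) and without Baseline replicate 1 (-0.88), 2 (-0.66) or 5 (-0.83). KRT1 and KRT10, keratins of the upper epidermis, were called higher, or 13.3% of the keratinocyte list beside 1.59% of all genes called higher. KRT1 was at 11.7 CPM in CS replicate 1 and 3.40 to 5.29 in the others, against 1.4 to 4.56, and its log2 change of 0.96 became 0.56 without CS replicate 1 and 0.81 without Baseline replicate 2, and 0.94 in the block over 10 libraries, none of them called. KRT10 was at 0.800 to 5.94 CPM against 0 to 1.69, and its log2 change of 1.86 lost the call without CS replicate 1 (1.23) and without Baseline replicate 1 (1.81), 5 (1.64) or 6 (1.76). The other 13 keratinocyte genes were not called, and 10 of the 15 genes in the list had changes below 0 (median log2 change -0.09). The list summed to 181 to 263 CPM at Baseline and to 202 to 251 CPM in CS.

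T cell and natural killer cell genes were called in both directions, 3 higher and 1 lower of 22, or 18.2% beside 2.82% of all genes tested. The higher calls of CD3D and CCR7 were lost without CS replicate 4. The list summed to 228 to 290 CPM at Baseline and to 287, 255, 241, 900 and 231 CPM in CS. In CPM scaled by its low TMM factor, CS replicate 4 was thus about 3 times any other library, and the rest overlapped. CD3D, a chain of the T cell receptor complex, was at 7.27, 4.35, 3.03, 50.7 and 4.17 CPM in CS against 1.52 to 6.02 at Baseline, and its log2 change of 1.74 was 0.19 without CS replicate 4. CCR7, the receptor that guides naive T cells to lymph nodes, was at 13.8, 9.50, 8.97, 65.6 and 16.5 CPM against 7.84 to 15.0, and its log2 change of 1.05 was 0.15 without CS replicate 4 and 0.53 in the block over 10 libraries, not called in either. CD3E, another chain of that complex, was at 408 CPM in CS replicate 4 and 9.37 to 42.5 CPM in the other CS libraries, and was not called. The GIMAP GTPases summed to 149 CPM in CS replicate 4 and to 21.8 to 64.2 CPM elsewhere.

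CD8A, the coreceptor of cytotoxic T cells, went the other way. It was at 6.83, 9.09, 9.58, 7.88 and 9.15 CPM in CS, against a Baseline range of 8.09 to 17.9 with a median of 12.9. It was lower in all 5 pigs, with a log2 change of -0.61 ± 0.24 (SE; edgeR adjusted p = 1), close to the fold needed for a call. The call was lost without Baseline replicate 2 (-0.53) or 5 (-0.50) or without CS replicate 1 (-0.54) or 4 (-0.58).

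The other blood cells showed little. By edgeR or DESeq2 no gene was called among 14 B and plasma cell genes, 15 neutrophil genes, 16 platelet genes or 17 red cell genes. Fits without 1 library called up to 1 gene in each of these lists, and with the pig as a block over 17 libraries 1 neutrophil, 1 platelet and 1 red cell gene were called. PAX5, a transcription factor of B cells, was at 105 ± 22.9 CPM at Baseline (SD, n = 6) and 113 ± 19.0 in CS (SD, n = 5), and the integrin ITGAM of myeloid cells was at 64.4 ± 16.3 and 72.7 ± 17.9 CPM. HBB, beta globin, was at 397 ± 198 and 422 ± 172 CPM, with both libraries of the pig of replicate 5 high in the red cell list, at 1060 and 971 CPM. PTPRC, the pan-leukocyte marker CD45, was at 85.0 ± 8.91 and 96.0 ± 27.3 CPM. C1QC, a chain of complement C1q made by macrophages, was the 1 call among 15 monocyte and macrophage genes, at 0.865 to 3.20 CPM against 1.05 to 5.90. Its log2 change of -1.05 ± 0.50 (SE; edgeR adjusted p = 1) lost the call in 8 of the 11 fits without 1 library.

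Vessel wall genes had 1 call in each of 2 lists. S1PR3 was that of the 13 smooth muscle and pericyte genes, and the only 1 of 15 genes of sphingosine-1-phosphate signalling. KDR, the main receptor for vascular endothelial growth factor, was that of 23 endothelial genes. It was at 16.2 to 25.8 CPM at Baseline, with a median of 18.4, and at 7.72, 17.1, 12.9, 9.97 and 15.2 CPM in CS. Only CS replicate 2 lay within the Baseline range, and KDR was lower in all 5 pigs. The log2 change was -0.62 ± 0.22 (SE; edgeR adjusted p = 1). It was not called without Baseline replicate 6 (-0.53), CS replicate 1 (-0.49) or CS replicate 4 (-0.55), nor in the block over 17 (-0.57) or 10 (-0.58) libraries. VWF, von Willebrand factor of the same cells, was at 244 ± 43.7 and 252 ± 63.8 CPM and was not called. In the endothelial list 13 of 23 genes had changes above 0 (median log2 change 0.06), and it summed to 579 to 827 CPM at Baseline and 611 to 885 in CS. In the smooth muscle and pericyte list 8 of 13 did (median 0.13), and it summed to 237 to 415 CPM and 321 to 451 CPM.

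**Figure D5:**
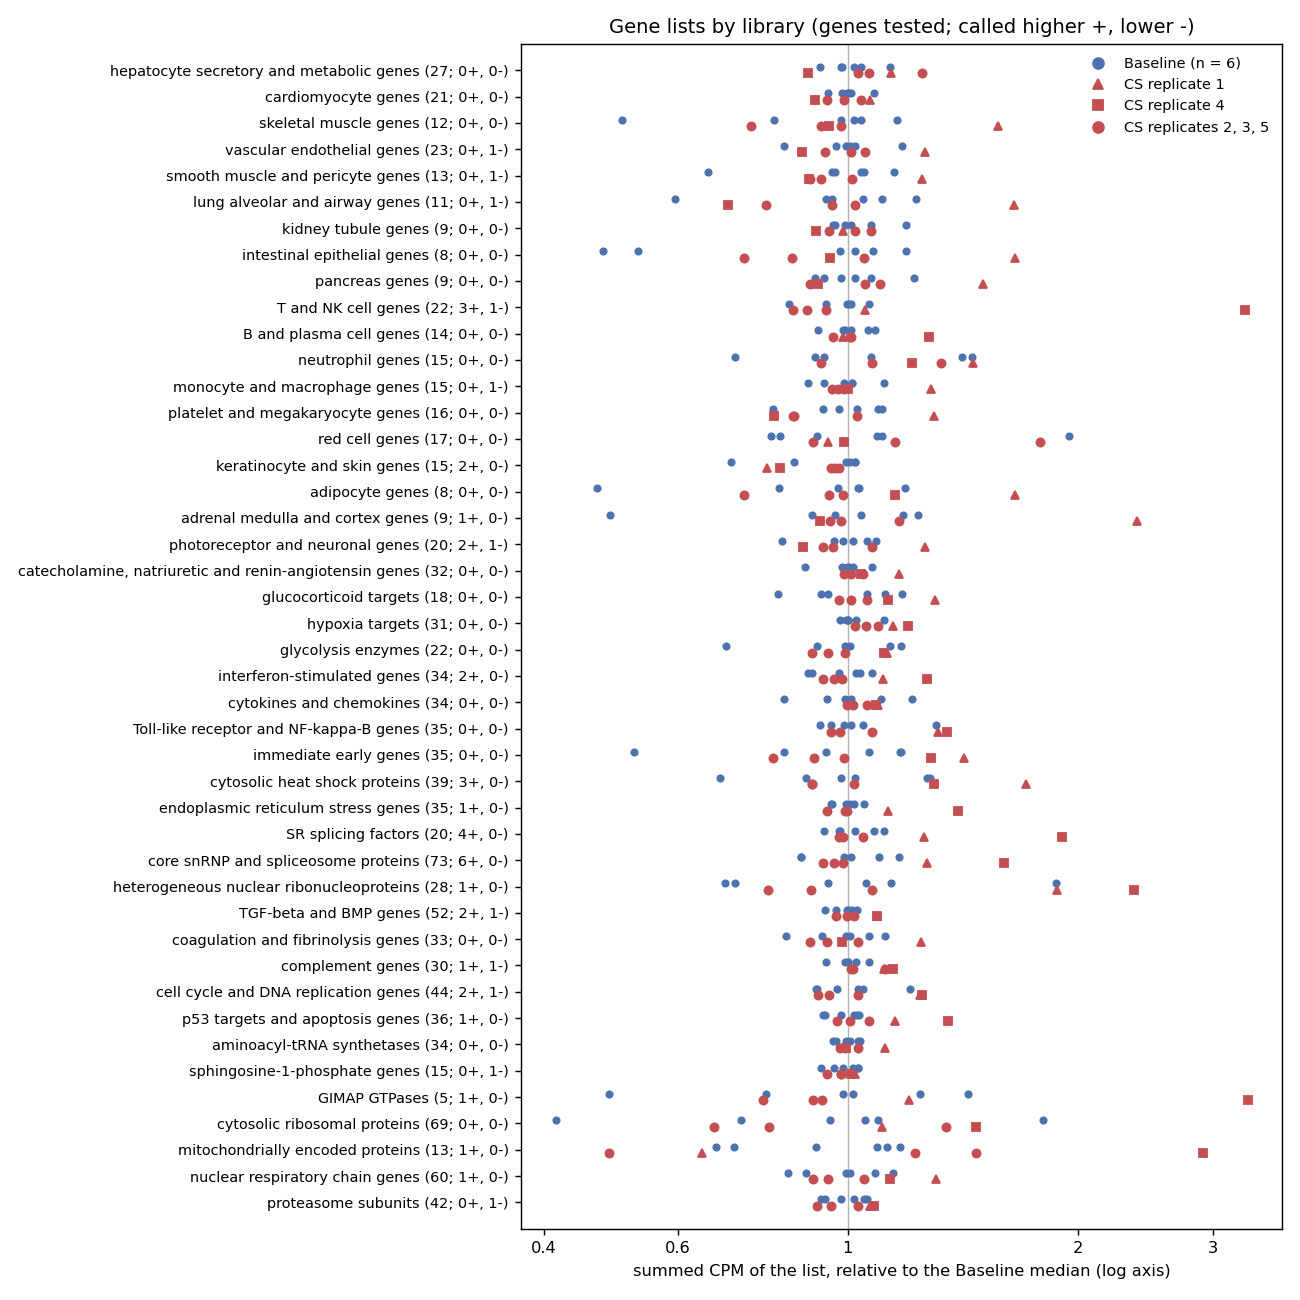
Summed CPM of 44 gene lists in each of the 6 Baseline (blue) and 5 CS (red) libraries, each point 1 library, divided by the Baseline median (log axis); in brackets, the genes tested and those called higher and lower. CS replicate 4 stands out for T and NK cell genes (900 CPM against 228 to 290 at Baseline), GIMAP GTPases and mitochondrially encoded proteins, and CS replicate 1 for the adrenal list (129 CPM).

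The lists for the hormones and stress pathways that shock engages had no gene called by edgeR. None was called of 32 catecholamine, natriuretic and renin-angiotensin genes (median log2 change 0.02), 18 glucocorticoid targets (0.08) or 31 hypoxia targets (0.15). GRK5, a kinase that switches off adrenergic receptors, was at 104 ± 18.2 CPM at Baseline (SD, n = 6) and 125 ± 26.6 in CS (SD, n = 5), and was higher in 4 of 5 pigs. The mineralocorticoid receptor NR3C2 was at 84.1 ± 12.5 and 85.3 ± 15.3 CPM. The glucocorticoid-induced genes ZBTB16 and TSC22D3 were at 102 ± 22.5 and 112 ± 22.1 CPM and at 39.2 ± 8.46 and 41.1 ± 6.31 CPM. EPAS1, which encodes hypoxia-inducible factor 2 alpha, was at 44.4 ± 6.47 and 49.0 ± 10.2 CPM, and RORA, a nuclear receptor in the hypoxia list, at 223 ± 29.1 and 233 ± 14 CPM, higher in all 5 pigs. The hypoxia list summed to 616 to 702 CPM at Baseline and to 643 to 756 CPM in CS, so the ranges overlapped. For hypoxia targets DESeq2 called 2 genes, the block over 10 libraries 1, and the fits without Baseline replicate 2 or 4 or CS replicate 2, 3 or 4 between 1 and 3. None of 22 glycolysis enzymes was called by edgeR, and 1 was in each block fit.

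The inflammation lists were similar. By edgeR no gene was called among 34 cytokines and chemokines, 35 Toll-like receptor and NF-kappa-B genes or 35 immediate early genes. DESeq2 called 1 cytokine or chemokine, and fits without 1 library called up to 2, 1 and 3 genes in these lists. IL16, a chemoattractant of CD4 cells, was at 53.9 ± 8.0 and 53.5 ± 7.50 CPM, and CXCL12, the ligand that holds leukocytes in marrow, at 35.1 ± 14.1 and 29.9 ± 7.07 CPM. HMGB1, a nuclear protein that signals damage when cells release it, was at 61.2 ± 30.4 and 82.7 ± 41.4 CPM, and the NF-kappa-B kinase IKBKB at 31.9 ± 9.35 and 33.8 ± 5.14 CPM. Of the immediate early genes, BTG1 was at 33.4 ± 7.67 and 29.0 ± 4.03 CPM and NR4A1 at 18.8 ± 7.10 and 19.0 ± 3.49 CPM. The interferon list had IFI6 and 1 other call among 34 genes, or 5.88% beside 2.82% of all genes tested, with a median log2 change of 0.10. That other gene was IRF9, part of the complex that drives interferon-stimulated genes, with 0 reads in all 6 Baseline libraries and in 4 of 5 CS libraries and 23 reads in CS replicate 4. The call thus rested on 1 library, and IRF9 was not called in either block fit.

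Genes of protein folding were called higher in small numbers. Of 39 heat shock and chaperone genes, 3 were called higher and none lower, with a median log2 change of 0.29. That is 7.69% called higher, beside 1.59% of all genes. Of 35 endoplasmic reticulum stress genes 1 was called higher, or 2.86%, with a median of 0.18. HSPE1, the mitochondrial co-chaperonin, was at 1.25, 1.51, 1.48, 1.96 and 2.80 CPM in CS against 0 to 1.09 at Baseline. It separated the groups and was higher in all 5 pigs. Its log2 change of 1.76 ± 0.82 (SE; edgeR adjusted p = 1) was imprecise at this depth. It ran from 1.5 to 2.11 without 1 library and was 2.50 and 1.90 in the blocks over 10 and 17 libraries, but it was not called in 6 of those 11 fits or in either block fit. DNAJA4, a co-chaperone of HSP70, was at 15.3 CPM in CS replicate 1 and at 3.30 to 4.64 in the others, within the Baseline range of 1.46 to 4.81, and its log2 change of 0.97 became 0.31 without that library. It was also lost without Baseline replicate 4 (0.83) or 6 (0.82) and in both block fits. CCT6A, a subunit of the chaperonin that folds actin and tubulin, was at 16.1, 5.24, 3.81, 11.2 and 4.28 CPM against 2.88 to 5.76. PDIA4, a disulfide isomerase, was at 32.1, 13.3, 14.7, 36.5 and 13.9 CPM against 9.82 to 15.2. For both, CS replicates 1 and 4 lay above Baseline and the other 3 within it, and their log2 changes of 0.93 and 0.74 became 0.06 and 0.08 without the pair. Leaving out either of the 2 libraries, or blocking on the pig, was enough to end both calls.

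Splicing genes made up the longest list of calls, all of them higher. Called higher were 4 of 20 SR splicing factors (median log2 change 0.23), 6 of 73 core spliceosome proteins (0.08) and 1 of 28 heterogeneous nuclear ribonucleoproteins (0.25). These are 20%, 8.22% and 3.57%, beside 1.59% of all genes called higher. The SR and spliceosome lists were highest in CS replicates 1 and 4. The SR list summed to 202 to 242 CPM at Baseline and to 273, 214, 211, 413 and 227 CPM in CS, and the spliceosome list to 624 to 840 CPM and to 912, 708, 667, 1150 and 690 CPM. In both lists CS replicates 1 and 4 lay above every Baseline library and CS replicates 2, 3 and 5 within the Baseline range. The heterogeneous nuclear ribonucleoproteins summed to 249 to 674 CPM at Baseline, with replicate 5 the highest, and to 677, 323, 283, 854 and 388 CPM in CS.

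The single splicing genes followed their lists. SF3B2, a branch site protein, was at 36.5, 11.7, 12.9, 47.7 and 10.9 CPM in CS against 11.4 to 16.3 at Baseline, and its log2 change of 0.82 was -0.19 without the pair. HNRNPL, a regulator of exon choice, was at 82.8, 24.0, 21.3, 47.3 and 24.3 CPM against 17 to 33.6, and its log2 change of 0.67 was -0.12 without the pair. Both lost the call without CS replicate 1 or 4 alone and in both block fits, and HNRNPL also without Baseline replicate 3, 4, 5 or 6. SRSF11 was at 15.5 and 20.2 CPM in CS replicates 1 and 4 and 4.07 to 4.77 in the others, within 2.47 to 6.71. SRSF9 was at 13.3 CPM in CS replicate 1 and 2.55 to 5.51 in the others, against 2.71 to 3.82. Their calls, at log2 1.30 and 0.94, were lost without CS replicate 1 (1.07 and 0.39), that of SRSF11 also without CS replicate 4 (0.86) and that of SRSF9 also in both block fits. SRSF1, the founding SR protein, was at 5.10, 2.73, 2.23, 10.4 and 6.29 CPM against 0.662 to 3.32, and its log2 change of 1.17 lost the call without CS replicate 4 (0.78) or 5 (1.10) or Baseline replicate 5 (0.98). PRPF39, which joins the U1 particle, was at 17.5, 8.18, 5.67, 4.83 and 6.41 CPM against 1.19 to 8.20, and its log2 change of 1.04 lost the call without CS replicate 1 (0.60) and without Baseline replicate 1, 2, 4 or 5. PRPF4, described above, was the 1 gene of these that kept its call in all fits without 1 library.

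Signalling, complement and cell cycle lists had calls in both directions. Of 52 TGF-beta and BMP genes, 2 were called higher and 1 lower, or 5.77% beside 2.82% of all genes tested. BMPR1A, a type 1 BMP receptor, was at 12.2, 19.6, 17.9, 5.64 and 16.6 CPM in CS against 16.4 to 37.1, with a log2 change of -0.73, and lost the call without Baseline replicate 5 (-0.63) or 6 (-0.57) or CS replicate 4 (-0.53). BAMBI, a decoy receptor of the same family, was at 10.2 CPM in CS replicate 1 and 2.86 to 4.46 in the others, against 1.76 to 3.5. ID3, a BMP target that blocks helix-loop-helix factors, was at 5.94 CPM there and 1.20 to 2.72 in the others, against 0 to 1.99. Their log2 changes of 0.92 and 1.47 lost the call without CS replicate 1 (0.48 and 1.0) and in both block fits, and ID3 in 6 other fits without 1 library. The change of ID3 was 1.45 in both block fits and 1.23 to 1.78 in the other fits without 1 library.

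Of 30 complement genes, C1QC was called lower and VTN higher, or 6.67% beside 2.82% of all genes tested. VTN, vitronectin, which restrains the membrane attack complex, was at 31.5 CPM in CS replicate 1 and at 3.82 to 8.15 in the others, against 1.52 to 6.59. A log2 change of 1.18 became 0.22 without that library, and the call was also lost without Baseline replicate 2 (1.15), 5 (1.16) or 6 (1.0) and in both block fits. None of 33 coagulation genes was called by edgeR (2 were without CS replicate 5), among them F13A1, the A chain of factor XIII, at 68.3 ± 7.02 CPM at Baseline (SD, n = 6) and 65.8 ± 7.67 in CS (SD, n = 5). Of 44 cell cycle genes, E2F1 and RRM2 were called higher and CDC45 lower, or 6.82% beside 2.82% of all genes tested. RRM2, a subunit of ribonucleotide reductase, was at 48.8, 9.66, 15.8, 27.5 and 17 CPM against 5.55 to 19.5, and its log2 change of 0.91 became 0.47 without CS replicate 1. CDC45, part of the replicative helicase, was at 6.26, 7.97, 10.2, 3.14 and 9.65 CPM against 7.35 to 17.1, and its log2 change of -0.76 became -0.56 without CS replicate 4. TP53INP1, a target of p53, was the 1 call of 36 genes in its list, at 11.3, 5.24, 4.70, 11.6 and 4.70 CPM against 3.31 to 7.70, and its log2 change of 0.73 lost the call in 7 of the 11 fits without 1 library and in both block fits.

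Mitochondrial and translation genes were mostly not called. By edgeR none was called of 69 cytosolic ribosomal proteins (median log2 change 0.01, with 2 called in the block over 10 libraries) or 34 aminoacyl-tRNA synthetases (0.02), and RPS24 was at 294 ± 27.6 CPM at Baseline (SD, n = 6) and 282 ± 21.2 in CS (SD, n = 5). The 13 mitochondrially encoded proteins all had fitted changes above 0, with a median of 0.52 on the log2 scale, and 1 was called. Their sum was 622 to 1080 CPM at Baseline and 596, 1130, 1360, 2690 and 450 CPM in CS, so that CS replicates 1 and 5 lay below every Baseline library and CS replicates 2, 3 and 4 above. ATP8, a subunit of ATP synthase, was the called gene, at 65.3 CPM in CS replicate 4 and 3.37 to 12.1 in the others, against 2.79 to 11.2. At log2 1.53 with all libraries, it was at 0.30 without CS replicate 4 and 0.84 in the block over 10 libraries, and was called in neither. ATP5ME, another subunit encoded in the nucleus, was the 1 call of 60 nuclear respiratory chain genes, at 24.3, 4.21, 1.87, 7.74 and 7.55 CPM against 0.948 to 5.69. The call, at log2 1.44, was lost without CS replicate 1 (0.67) or Baseline replicate 2 (1.31) and in the block over 17 libraries (0.81). PSMB9, a subunit of the immunoproteasome, was the 1 call of 42 proteasome genes, at 0.120, 0.766, 1.67, 1.32 and 0.859 CPM against 0.756 to 5.23. That call, at log2 -1.38, was lost without Baseline replicate 5 (-1.03) or CS replicate 2 (-1.32) and in the block over 10 libraries (-1.48).

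By gene type, protein-coding genes gave 300 calls higher and 167 lower of 18907, and long non-coding RNAs 71 and 88 of 5831. Calls of small RNAs rested on few reads. Calls were 15 higher and 35 lower of 378 small nuclear RNAs, 11 and 12 of 134 small nucleolar RNAs, and 8 and 5 of 118 microRNA genes, while 1.59% and 1.24% of all genes were called higher and lower. Of these calls, all 50 of small nuclear RNAs and 22 of the 23 of small nucleolar RNAs had under 10 reads per library. The libraries were made by a method for long RNA, and 110 of the 118 microRNA genes had under 10 reads per library, including all 13 that were called. SNORD116, a small nucleolar RNA that exists in many copies, had 38, 60 and 67 reads in Baseline replicates 1, 3 and 4, none in the other 3, and 2 reads in all CS libraries together, both in replicate 5. SCARNA16, a guide RNA of the Cajal body, was at 818 CPM in CS replicate 4 and at 3.51 to 22.0 in the other CS libraries, against 3.21 to 50.8. A log2 change of 3.39 turned to -0.96 without CS replicate 4, and SCARNA16 was called in neither block fit (0.61 and 1.14).

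The 5 microRNA genes called lower had most of their reads in a few Baseline libraries. MicroRNAs are short RNAs that repress messenger RNAs, and the gene counts here cannot tell a mature microRNA from fragments of its precursor. miR-200b, of a family that keeps epithelial identity, had 10, 0, 10, 1, 0 and 3 reads at Baseline and 0 in each CS library. The let-7i gene had 15, 0, 5, 2, 0 and 1 reads at Baseline and 0 in each CS library. A let-7a gene had 18 reads, all in Baseline replicate 4, and 0 in CS. miR-30a had 5, 35, 1, 0, 0 and 0 reads at Baseline and 3 reads in CS, all in replicate 5. miR-7857 had 9 reads in 2 Baseline libraries and none in CS. At most 4 of 6 Baseline libraries thus held a read of any of these.

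Of the 8 microRNA genes called higher, 7 had 0 reads at Baseline. They were miR-320 (9 reads in 3 CS libraries), miR-20b (13 in 2), miR-363 (22 in 2), miR-7143 (23 in 2), miR-9839 (10 in 2), miR-4331 (18 in 1) and miR-9826 (15 in 3). No 1 of them had a read in more than 3 of the 5 CS libraries. The eighth had no symbol, with 3 reads in 2 Baseline libraries and 27 in 3 CS libraries. miR-223, a microRNA of neutrophils and platelets, had more reads than any of these and was not called in the main fit. It had 58, 15, 118, 37, 14 and 31 reads at Baseline and 1, 7, 28, 3 and 30 in CS, or 0.428 to 2.24 CPM and 0.0241 to 0.679 CPM. It was lower in all 5 pigs, with overlapping groups and a log2 change of -1.87 ± 0.98 (SE; edgeR adjusted p = 1). miR-451, of red cells, had 22 reads at Baseline, 17 of them in replicate 6, and 2 in CS, and was not called in the main fit. With CS replicate 6 included, both miR-223 (-1.99) and miR-451 (-3.1) were called. One or the other was also called by DESeq2, without Baseline replicate 1, 2, 3 or 5, and without CS replicate 3 or 4.

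The most abundant called genes showed how much 1 library can carry. ARHGEF18, a guanine nucleotide exchange factor, was at 436 CPM in CS replicate 4 and at 57.4 to 93.0 CPM in the others, against 47.5 to 83.5, and its log2 change of 1.09 was 0.08 without that library and 0.53 in the block over 10 libraries, not called in either. A long non-coding RNA with no symbol (ENSSSCG00000041901) was at 1020 CPM in CS replicate 4 and at 139 to 294 CPM in the others, against 61.0 to 242, and its log2 change of 1.25 was 0.41 without it, and the call was also lost without Baseline replicate 5 (1.09). NDFIP2, an adaptor of ubiquitin ligases, was called lower because of Baseline replicate 5, at 213 CPM, with a median of 30.4 at Baseline and 15.6 to 32.2 CPM in CS. The log2 value of -1.17 was -0.12 without that library, and the call was also lost without CS replicate 1 (-1.03) and in both block fits. Another long non-coding RNA (ENSSSCG00000047523) reached 498 CPM in 1 Baseline library against a median of 119, and was at 52.7 to 74.2 CPM in CS. It had a log2 change of -1.56, which was -0.96 without Baseline replicate 6, and was not called in 6 of the 11 fits without 1 library.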

How the data were processed

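The authors trimmed paired reads of serum RNA with Trim Galore 0.4.4, aligned them with STAR 2.4.2a and used featureCounts (R 3.6.0) to count them over Ensembl genes. They deposited raw counts, used here as they stand; the genome build and the use of strand are not given in the sources used here, so overlapping and antisense genes cannot be told apart. Of 31908 genes, 26146 with at least 5 reads over 17 libraries were tested with edgeR 4.0.16 (R 4.3.3), TMM factors and the time point as only term; the study used DESeq2, an alternative here (1.42.0). P-values were two-sided and adjusted by Benjamini-Hochberg over all genes tested. CPM used TMM-scaled totals, and within-pig directions needed no test. Scripts were tested on simulated data.

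The libraries compared and the lists were chosen with earlier results of these data known. Named genes were drawn from the 12 of smallest p in each direction, with a symbol, 10 reads per library and 1 direction in 5 pigs; up to 3 called genes per list, or its 2 most abundant if none was called; called microRNA genes and miR-200b, miR-223 and miR-451; and the 3 most abundant called genes in each direction. Genes that kept their calls in the 11 fits without 1 library and in both block fits were chosen after their values were seen. So were CD3E, CKM, NPPB, PTPRC, TNNT2 and ALB. Symbols came from the deposited table (16698 genes), an Ensembl name table (797) and RefSeq (793), and 13620 genes had none. Deviations of the paired libraries from their group means correlated between -0.203 and 0.173. Libraries of different pigs correlated between -0.329 and 0.404, so the paired libraries were no more alike. The pairing comes from the animal in the labels. Alternatives were DESeq2, other size factors and filters, each library left out, the pig as a block, CS replicate 6 included, and CS replicates 1 and 4 left out (added after seeing the data).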

Additional observations from a re-analysis of the deposited data

Results flagged for a closer look

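Of 210 groups of values examined, 38 had 1 library standing far from the others of its group. Chance alone gives about 1 in 20 for normally distributed values, and CPM levels need not be distributed so. Most groups were also values of genes named because these libraries called them, so the count is a description and no test. CS replicate 1 was the highest in 17 of them. In that library ACD was at 5.75 CPM, OR4D10 at 7.05, RBBP6 at 35.8, E2F1 at 29.5, CYB561D1 at 20.2, KRT1 at 11.7, STAR at 18.6, GFAP at 28.2 and EPAS1 at 66.6 CPM. NR4A1 was at 25.0 CPM, DNAJA4 at 15.3, SRSF9 at 13.3, PRPF4 at 10.5, PRPF39 at 17.5, BAMBI at 10.2, VTN at 31.5 and ATP5ME at 24.3 CPM there. BTG1 was the 1 gene for which this library was the lowest, at 22.1 CPM. CS replicate 4 was the highest in 8 groups, with CD3D at 50.7 CPM, CD3E at 408, CCR7 at 65.6, ITGAM at 104, ATP8 at 65.3, ARHGEF18 at 436, SCARNA16 at 818 and the long non-coding RNA ENSSSCG00000041901 at 1020 CPM. CS replicate 5 was the highest for NUDT11, at 2.87 CPM, and for SNORD116, at 0.0365 CPM.

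At Baseline, replicate 3 had the lowest share of reads in its 4 most abundant genes, 32.8%, and the highest SRSF9, 3.82 CPM. Replicate 2 was the highest for IL16 (69.6 CPM), TP53INP1 (7.70 CPM) and NUDT11 (5.67 CPM). Replicate 5 was the highest for HBB (776 CPM), HMGB1 (121 CPM) and NDFIP2 (213 CPM), and replicate 6 for RYR2 (228 CPM) and SCARNA16 (50.8 CPM).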

How the results depend on the processing

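The count of 738 called genes was 354 with the pig as a block over 10 libraries (152 higher and 202 lower against 415 and 323), 688 in the block over 17, and 486 to 1066 without 1 library. It was 301 without CS replicates 1 and 4, an alternative chosen after seeing the data, and 517 to 993 in the other settings, the lowest with a fold above 2. The highest of these included the shallow CS replicate 6, and only 388 of its calls were among the 738. These were 140 of the 415 called higher and 248 of the 323 called lower. DESeq2 kept 596 of the 738. The count of 43 called genes over the lists was 28 in the block over 10 libraries, 28 to 71 without 1 library and 5 without CS replicates 1 and 4. CS minus Baseline without 1 library ran from -0.519 to 0.75 percentage points for mitochondrial reads, from -5.91 to 5.35 for protein-coding reads, from -6.12 to 5.7 for the 4 most abundant genes and from -1050 to -97 genes at equal depth, a measure for which CS replicate 6 was too shallow. Of 87 called genes named, 50 lost the call in at least 1 fit without 1 library. Signs turned for 4: CD3D (-0.1), SF3B2 (-0.19), HNRNPL (-0.12) and SCARNA16 (-0.73) without CS replicates 1 and 4, and SCARNA16 ran from -0.96 to 4.18 without 1 library. The cause of these shifts was not tested. Depth limits the small RNAs, of which most had under 10 reads per library. Counting error alone leaves a gene at 0 reads in a library compatible with 3 reads.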
